A study of Mus musculus with 17 samples.

Results

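Plasmacytoid dendritic cells (pDCs) of C57BL/6 mouse bone marrow were stimulated with one of 2 CpG oligonucleotides, and the comparison described here set CpG-A (oligo 2216) against CpG-B (oligo 1826), both without LIF. Each group had 3 arrays, 6 of the 17 in the series, chosen by their titles. Each oligo was used at 6 µg/ml, and the treatment protocol gives 19 to 23 h of culture, slightly unlike the window in the series' design text. The cells shared by all groups were sorted on B220 and Siglec-H together with an intermediate level of CD11c. Total RNA was amplified and hybridised to single-colour Affymetrix mouse gene arrays. The other 11 arrays held CpG-A + LIF, CpG-B + LIF and LIF (10 ng/ml) with 3 arrays each, and medium with 2. The labels do not say whether replicates came from separate mice or pools, so p-values measure the spread between these samples, which may be technical.

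pDCs sense unmethylated CpG DNA through the endosomal receptor TLR9, which signals through MyD88 to IRF7, the route to type I interferon, and to NF-kB, the route to cytokines and surface maturation. CpG-A oligos, with a palindromic core and poly-G ends, aggregate into large particles that are held in early endosomes and are known for strong interferon induction. CpG-B oligos are linear, pass on to late endosomes and are known for maturation, survival and the activation of B cells. The comparison asked which transcripts differ between the 2 classes of oligo in the same cell type at the same dose.

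The deposited intensities are known only by their digits, because the decimal mark was lost, so that a log2 value is fixed only up to whole multiples of 3.32 (a factor of 10). A difference is given as its nearest reading, CpG-A minus CpG-B on the log2 scale, between -1.66 and 1.66. A called gene (limma, adjusted p under 0.05) was said to read higher or lower with CpG-A only where the reading was at most 1.11 in size, or 2.15-fold, since the other reading is then at least 4.64-fold the opposite way. Larger called readings are open in direction and are given with both readings. Values of single arrays below are log2 units relative to the mean of the CpG-B arrays, which is 0. Absolute levels are lost, so the presence of pDC markers could not be checked and no gene's level can be set against another's. In bulk RNA, fewer cells of a type and less RNA per cell cannot be told apart.

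Of 19751 genes, 2560 (13.0%) were called. CpG-A gave the higher reading in 873 (4.42%) and the lower one in 1212 (6.14%), while 475 (2.40%) were open in direction. Counts of list members below are to be read beside these shares of all genes. Without overlap between the 3 CpG-A and the 3 CpG-B arrays were 5575 genes (28.2%), among them 2505 of the called ones. The median SD within groups was 0.19, the median SE of a reading was 0.15, and the median reading over all genes was 0.041. The medians of the arrays' deviations from the mean of all arrays lay between -0.03 and 0.025. The normalisation and this centring bring them near 0, so they do not show whether an array stood apart. For 94.5% of called readings within the limit, and 71.6% of open ones, the reading equalled the difference of the 2 readings against medium. Among genes not called this share was 99.2%. The 3 readings share arrays, so their equality is no support for any of them. Where the reading did not equal that difference, at least 1 of the 3 readings is not the true one. Among genes named below with a direction, this holds for Atp6v1c1, Casp8, Cmpk2, Csf2rb2, Ets1, Flt3, Gadd45b, H2-Q4, Hivep1, Icam1, Ifit1, Itgax, Maff, Map3k8, Mef2c, Slc2a6, Slfn4, Tdrd7, Tnf and Xcl1.

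**Figure D1:**
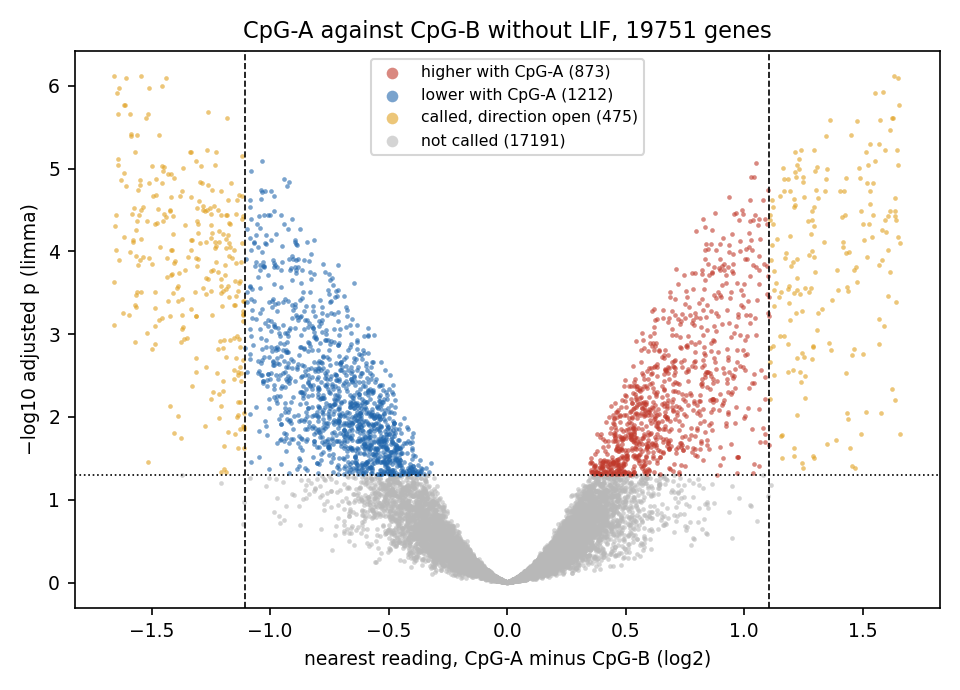
Each point is 1 of 19751 genes, with its nearest reading (CpG-A minus CpG-B, log2) on the horizontal axis and -log10 of limma's adjusted p on the vertical axis. Dashed lines mark the limit of 1.11 for giving a direction and the dotted line the threshold of 0.05. Below the limit, 873 genes read higher and 1212 lower with CpG-A, and 475 called genes lie outside it.

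The antiviral program of type I interferon read higher with CpG-A. Of 57 interferon-stimulated genes measured, 27 were called (47.4%, against 13.0% of all genes), 26 of them higher (4.42% of all genes), 0 lower (6.14%) and 1 open (2.40%), and the median reading of the list was 0.48. Ifi203, a PYHIN family nucleic acid sensor, stood at 0.89, 0.85 and 0.89 in CpG-A arrays, against -0.02, -0.03 and 0.04 in CpG-B arrays (reading 0.87 ± 0.14 SE, adjusted p = 0.00034). Parp10, an interferon-induced mono-ADP-ribosyltransferase, stood at 0.85, 1.01 and 0.84 in CpG-A arrays and at -0.18, 0.18 and -0.01 in CpG-B arrays (0.90 ± 0.15). The groups did not overlap for either gene, and the CpG-A arrays of Ifi203 lay close together. Mx2, a GTPase of the same list, stood at 1.03, 0.72 and 1.23 in CpG-A arrays, against -0.12, 0.18 and -0.06 in CpG-B arrays (1.00 ± 0.19, adjusted p = 0.0016). Cmpk2, a mitochondrial nucleotide kinase encoded next to Rsad2, read 0.93 ± 0.19 higher. Rsad2 itself, whose product viperin makes a chain-terminating nucleotide, read 1.25 ± 0.24 or -2.08, and its direction is open. Oas1a, a sensor of double-stranded RNA, read 0.82 ± 0.18 higher, and Ifit1, which binds viral RNA ends, 0.79 ± 0.16 higher.

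Interferon-stimulated genes are switched on through the interferon-stimulated response element, which IRF proteins bind. Its core, GAAA then any 2 bases then GAAA, searched on both strands in the 250 bases before each start, was held by 16 of the 57 promoters (28.1%) that RefSeq lists for 43 genes of the interferon-stimulated list. It was held by 2.98% of all 32851 promoters in the RefSeq table, by 4.4% of those of genes that read higher and by 2.75% of those of genes that read lower. Among the list's members that read higher, 6 of 31 promoters (19.4%) held it. The called members with the smallest p-values whose promoters hold it are printed here to set the letters beside the readings, with matches in capitals, on the gene's strand of GRCm38.p6. Their stretches are chr1:173942493-173942567 on the minus strand for Ifi203, chr19:34640745-34640853 on the plus strand for Ifit1, chr5:120907526-120907585 on the minus strand for Oas1a, chr4:45972066-45972155 on the plus strand for Tdrd7 and chr7:104465194-104465269 on the minus strand for Trim30a.
Ifi203: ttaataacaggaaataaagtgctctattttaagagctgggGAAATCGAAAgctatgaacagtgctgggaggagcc
Ifit1: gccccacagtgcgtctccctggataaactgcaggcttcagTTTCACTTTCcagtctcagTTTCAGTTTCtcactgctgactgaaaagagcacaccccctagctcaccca
Oas1a: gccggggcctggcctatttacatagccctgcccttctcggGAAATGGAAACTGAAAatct
Tdrd7: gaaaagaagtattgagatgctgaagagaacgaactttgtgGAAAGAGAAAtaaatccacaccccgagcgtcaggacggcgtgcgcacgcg
Trim30a: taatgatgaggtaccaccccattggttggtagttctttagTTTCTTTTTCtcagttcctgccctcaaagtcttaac
Ifit1 and Oas1a each hold 2 matches, which overlap in Oas1a, and the first match begins 35 bases before the start in Ifi203 and 20 before it in Oas1a. A match describes these letters and shows no binding. Of the 5 genes, those with the smallest readings were Tdrd7, a repressor of autophagy and viral replication, at 0.68 ± 0.19, and Trim30a, a feedback regulator of NF-kB, at 0.38 ± 0.11. Leaving out CpG-A replicate 3 ended the call of Tdrd7 (adjusted p = 0.091), as did leaving out CpG-B replicate 3 (0.118). That of Trim30a was lost without replicate 1 or 3 of CpG-A (0.102 and 0.0683) or of CpG-B (0.0768 and 0.0776).

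The regulators upstream of these genes read the same way. Of 10 interferon regulatory factors or their partners, 5 were called (50.0%, against 13.0% of all genes), all higher, with a list median of 0.47. Irf1, which is itself interferon-inducible, stood at 0.77, 0.92 and 1.19 in CpG-A arrays, against -0.12, 0.10 and 0.02 in CpG-B arrays (0.96 ± 0.20, adjusted p = 0.0027). Irf2bp2, a corepressor that binds Irf2, read 0.91 ± 0.19 higher, with its CpG-B arrays spread between -0.26 and 0.45. Irf7, the master factor for interferon-alpha genes, read 0.73 ± 0.19 higher, Irf9 0.62 ± 0.15 and Irf8, a lineage factor of pDCs, 0.51 ± 0.13. The last 3 calls depended on single arrays: Irf8 and Irf9 lost theirs without CpG-B replicate 3 (adjusted p = 0.0654 and 0.0675), and Irf7 lost its call without that array (0.0538), without CpG-B replicate 1 (0.0532) and without CpG-A replicate 3 (0.0674).

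Among 30 cytokine receptors, JAK, STAT and SOCS genes, 8 read higher, 2 lower and 1 was open, with a list median of 0.14. Il10ra, the ligand-binding chain of the interleukin-10 receptor, stood at 1.17, 1.12 and 0.70 in CpG-A arrays and at 0.11, -0.09 and -0.02 in CpG-B arrays (1.00 ± 0.16, adjusted p = 0.00034). Cish, a STAT5-induced feedback inhibitor, was uneven within CpG-A, at 0.64, 1.15 and 0.25, against -0.03, 0.04 and -0.01 in CpG-B arrays (0.68 ± 0.16, adjusted p = 0.0062). Cish was not called in a fit of the 6 arrays alone (adjusted p = 0.0517). Of 11 interferon-induced GTPases, which attack the membranes around intracellular microbes, 3 read higher, 0 lower and 4 were open. Gbp4 stood at 0.60, 0.55 and 0.50 in CpG-A arrays, against 0.04, 0.08 and -0.12 in CpG-B arrays (0.55 ± 0.13). Iigp1 read 1.46 ± 0.22 or -1.86 and Gbp8 1.19 ± 0.20 or -2.13. Of 9 Schlafen genes, 3 read higher, among them Slfn8 at 0.71 ± 0.16 (adjusted p = 0.0049). Slfn4 lost its higher call whichever of the 6 arrays was left out (adjusted p = 0.0700 to 0.149). Slfn5 lost its own without CpG-A replicate 1 or 3 (0.0732 and 0.0612).

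The interferon genes gave fewer calls than their targets. Of 14 type I and III interferon genes measured, 1 read higher, 1 lower and 2 were open, with a list median of 0.036. Ifnb1 stood at 1.04, 0.66 and 1.06 in CpG-A arrays, against -0.32, -0.06 and 0.38 in CpG-B arrays (0.92 ± 0.23, adjusted p = 0.012). Its call was lost without CpG-A replicate 1 (0.0513), without CpG-A replicate 3 (0.0524) and without CpG-B replicate 1 (0.0742). Ifnab, a type I interferon of the alpha cluster, stood at -1.05, -1.17 and -0.53 in CpG-A arrays and at 0.12, -0.03 and -0.09 in CpG-B arrays. Its nearest reading was -0.92 ± 0.23 and its other reading 2.4. The call was lost without CpG-A replicate 2 (0.0551). Ifna12 read -1.14 ± 0.23 or 2.18 and Ifna2 -1.27 ± 0.33 or 2.05, and both stay undirected. Ifna2 also lost its call without CpG-A replicate 2 (0.0721) and without CpG-B replicate 3 (0.0799). The interferon-alpha genes are near-identical in sequence, so signals of their probe sets may be shared.

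Called genes of the endosomal sensing machinery mostly read higher with CpG-A. Of 37 measured, 9 read higher, 3 lower and 1 was open (35.1% called, against 13.0% of all genes), with a median of 0.24. Tlr7, the endosomal receptor for single-stranded RNA, stood at 0.69, 0.87 and 0.54 in CpG-A arrays, against 0.08, -0.18 and 0.10 in CpG-B arrays (0.70 ± 0.14, adjusted p = 0.0025). Tlr9, the receptor for both oligos, stood at 0.62, 0.50 and 0.57 in CpG-A arrays, against 0.13, -0.07 and -0.07 in CpG-B arrays (0.56 ± 0.11, adjusted p = 0.0022). Both receptors separated the groups without overlap. Ap3d1, a subunit of the AP-3 adaptor that carries TLR9 to the compartment where IRF7 is engaged, read 0.83 ± 0.14 higher. Slc15a4, a histidine and peptide transporter of that compartment, stood at 1.03, 0.89 and 1.05 in CpG-A arrays and at 0.09, -0.09 and -0.01 in CpG-B arrays (0.99 ± 0.16, adjusted p = 0.0003). Unc93b1, the chaperone that brings these receptors to endosomes, read 0.40 ± 0.11 higher and the adaptor Myd88 0.54 ± 0.14 higher. The kinase Syk, which relays inhibitory receptors in pDCs, read lower, at -0.51 ± 0.14. These last 3 calls were lost when single arrays were left out. Unc93b1 reached 0.0659 without CpG-B replicate 3, 0.054 without CpG-B replicate 2 and 0.0554 without CpG-A replicate 1 or 3, and 0.0707 in a fit of the 6 arrays alone. Myd88 reached 0.0755 without CpG-B replicate 2, 0.0616 without CpG-B replicate 1 or CpG-A replicate 3, and 0.0536 without CpG-A replicate 1. Syk reached 0.0986 without CpG-B replicate 1, 0.0559 and 0.0561 without CpG-A replicates 1 and 3, and 0.0503 without CpG-B replicate 3.

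In the lysosomal list, 12 of 61 members read higher, 3 lower and 0 were open (24.6% called, against 13.0% of all genes), with a median of 0.14. Atp6v1d, a rotor subunit of the proton pump that acidifies endosomes, stood at 1.06, 1.12 and 0.94 in CpG-A arrays, against -0.15, 0.12 and 0.03 in CpG-B arrays (1.04 ± 0.12, adjusted p = 1.3e-05). It was the called gene with the second smallest p among those that read higher. Another pump subunit, Atp6v1c1, read 0.78 ± 0.12 higher, the cholesterol exporter Npc1 0.63 ± 0.11 and the calcium channel Mcoln1 0.67 ± 0.14. Psap, the precursor of sphingolipid activator proteins, read 0.66 ± 0.15 higher, the receptor Scarb2 0.63 ± 0.14 and the protease Ctsb 0.54 ± 0.12. Against these, the hydrolase Gusb stood at -1.17, -0.78 and -0.999 in CpG-A arrays and at 0.22, 0.13 and -0.35 in CpG-B arrays, a lower reading of -0.98 ± 0.18.

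**Figure D2:**
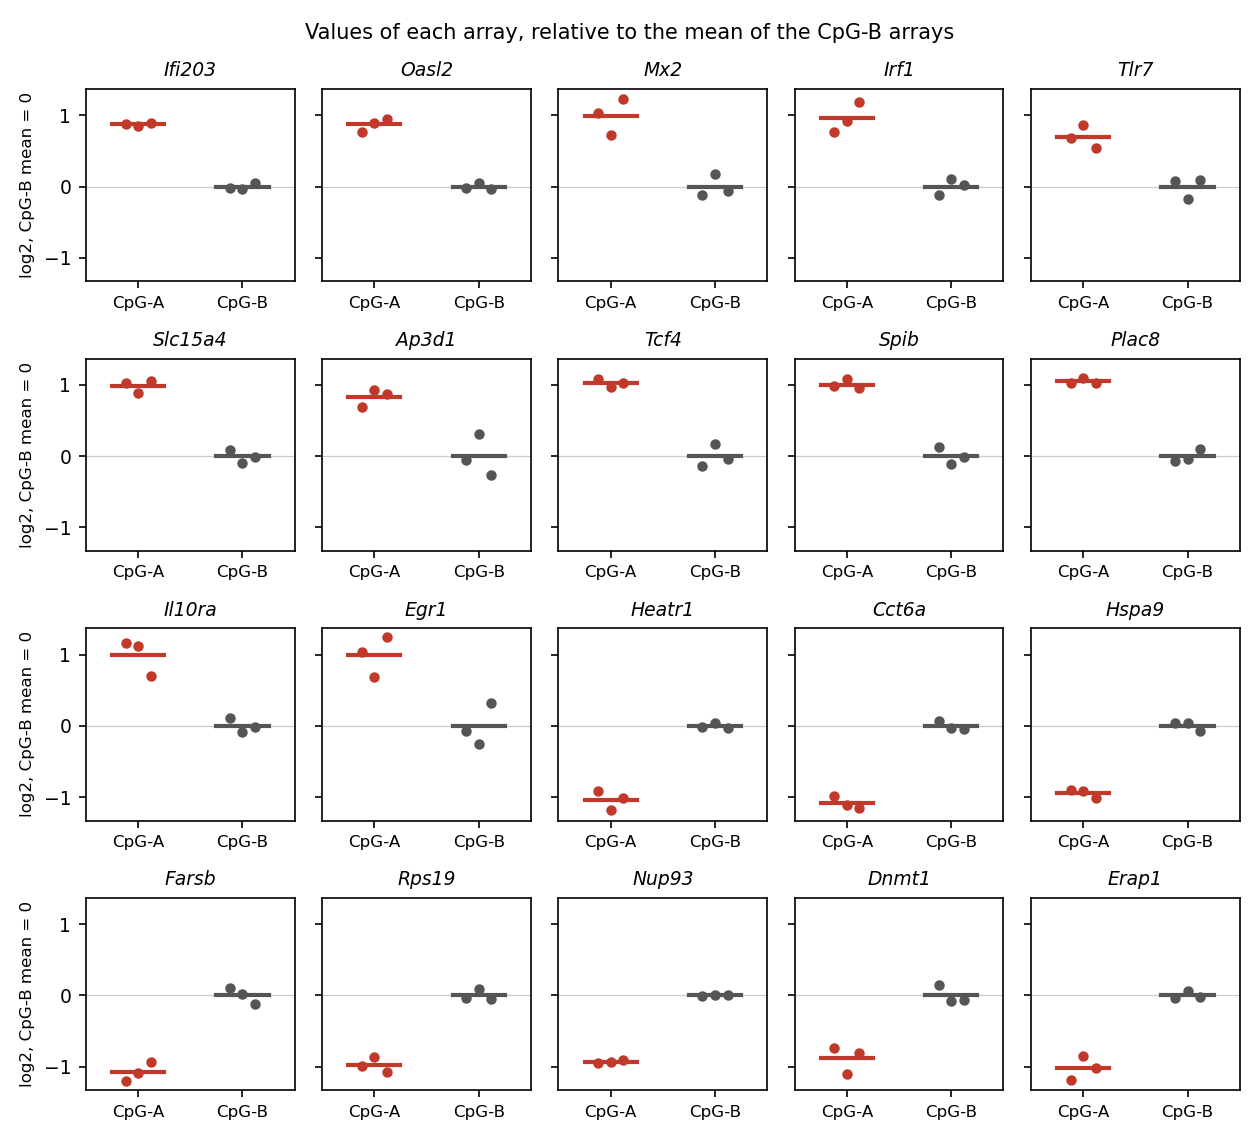
Points are the 3 CpG-A arrays (left, red) and the 3 CpG-B arrays (right, grey) of 20 genes, in log2 units relative to the mean of the CpG-B arrays, and bars are group means. For all 20 genes the groups do not overlap, with Ifi203 to Egr1 above and Heatr1 to Erap1 below the CpG-B arrays.

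Called transcription factors of the pDC lineage mostly read higher with CpG-A. Of 36 measured, 12 read higher, 2 lower and 0 were open, and the median was 0.23. Tcf4 (E2-2), the E protein that holds pDC identity, stood at 1.09, 0.97 and 1.02 in CpG-A arrays and at -0.13, 0.17 and -0.04 in CpG-B arrays (1.03 ± 0.11, adjusted p = 1.3e-05). Spib, an Ets factor that works with it, stood at 0.98, 1.08 and 0.95 in CpG-A arrays, against 0.12, -0.11 and -0.01 in CpG-B arrays (1.00 ± 0.15). All CpG-A arrays of both genes lay above all CpG-B arrays. The E protein Tcf12 read 0.73 ± 0.13 higher, as did Id2, an inhibitor of E proteins that is low in resting pDCs, at 0.76 ± 0.16. Ikzf2 (Helios) read 1.09 ± 0.16 higher, Ets1 1.10 ± 0.18 and Xbp1, which builds the secretory apparatus, 0.81 ± 0.15. Mef2c read lower, at -0.83, -0.69 and -0.66 in CpG-A arrays, against 0.15, -0.19 and 0.04 in CpG-B arrays (-0.72 ± 0.15).

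Against medium the 2 oligos gave Tcf4 readings of -0.38 (CpG-A) and -1.41 (CpG-B, outside the limit), Spib 0.26 and -0.74, and Tcf12 -0.13 and -0.87. Over the 36 factors the medians were -0.17 for CpG-A and -0.46 for CpG-B, relative to the same 2 medium arrays, so that these values share their baseline.

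Surface and effector genes of pDCs held many large differences. Of 44 measured, 28 were called, 10 higher, 3 lower and 15 open, and the median was 0.56. Plac8, a small cysteine-rich protein abundant in pDCs, had the smallest p among genes that read higher, with 1.03, 1.09 and 1.03 in CpG-A arrays, against -0.07, -0.03 and 0.10 in CpG-B arrays (1.05 ± 0.11, adjusted p = 8.5e-06). Ccr9, the receptor that guides pDCs to the gut, read 0.59 ± 0.13 higher. Of the 15 open members, 12 had a positive nearest reading and 3 a negative one. Ptprs, an inhibitory receptor phosphatase of pDCs, read 1.51 ± 0.16 or -1.81, Cd300c 1.23 ± 0.13 or -2.09 and Lag3, an inhibitory receptor, 1.17 ± 0.13 or -2.15. Siglech, part of the sorting gate, read 1.34 ± 0.13 or -1.98. Paqr5, a membrane progestin receptor, read -1.40 ± 0.16 or 1.92. The CpG-A and CpG-B arrays of these 5 did not overlap on the nearest reading, but which oligo gave more transcript is not known from these digits.

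Among 50 inhibitory and lectin receptors, 14 read higher, 1 lower and 6 were open, with a median of 0.46. Tyrobp, the DAP12 adaptor that pairs with Siglec-H, stood at 0.76, 0.88 and 0.75 in CpG-A arrays, against -0.09, 0.12 and -0.04 in CpG-B arrays (0.80 ± 0.11, adjusted p = 5.7e-05). Ceacam1, an inhibitory adhesion receptor, read 0.90 ± 0.13 higher, Siglec1, an interferon-induced sialic acid receptor, 0.95 ± 0.15, and Sirpa, the receptor for CD47, 0.65 ± 0.13. Cd33 read 1.53 ± 0.18 or -1.79 and Cd72 -1.25 ± 0.17 or 2.08. Several genes of this list are also expressed by monocytes and neutrophils, so markers of those cells are given beside it. Of 13 neutrophil markers, 12 had a positive reading (range -0.071 to 1.06, median 0.45) and 1 was called. Camp, a granule peptide, stood at 0.29, 1.85 and 1.03 in CpG-A arrays, against -0.49, 0.60 and -0.11 in CpG-B arrays (adjusted p = 0.18), and Ngp at 0.20, 1.89 and 0.76, against -0.39, 0.96 and -0.57 (0.29). S100a8 stood at -0.07, 1.26 and 0.18 in CpG-A arrays, against -0.25, 0.21 and 0.05 in CpG-B arrays, and S100a9 at -0.05, 1.20 and 0.65, against -0.43, 0.53 and -0.10. CpG-A replicate 2 was highest for all 4, and CpG-B replicate 2 was highest of its group. With the replicate number as a block, Ngp (adjusted p = 0.00096) and S100a9 (0.014) became called higher with CpG-A. Of 15 monocyte and macrophage markers, 12 had a positive reading (median 0.24), 1 was called higher and 2 were open: Lyz2, lysozyme, at 1.26 ± 0.29 or -2.06, and Ccr2 at 1.50 ± 0.29 or -1.82. The part of such cells in the receptor readings was not tested.

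Other lineages showed no common direction. B cell markers had 2 higher, 1 lower and 2 open of 17, with Igll1, the surrogate light chain also made by pDC precursors, at 0.98 ± 0.20. Conventional dendritic cell markers had 2 higher and 3 lower of 14, with Clec9a at 0.82 ± 0.18 and Itgax (CD11c) at -1.05 ± 0.21. T and NK cell markers had 1 higher and 2 lower of 15 (20.0% called, against 13.0% of all genes). Since levels are lost, whether any of these markers is present at all cannot be read.

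No NF-kB gene of the list was called lower with CpG-A. Of 26 measured, 5 read higher, 0 lower and 2 were open (26.9% called, against 13.0% of all genes), with a median of 0.12. Rel, the c-Rel subunit, stood at 0.81, 0.62 and 0.76 in CpG-A arrays, against 0.07, 0.00 and -0.07 in CpG-B arrays (0.73 ± 0.13, adjusted p = 0.00075). Map3k8, the kinase TPL2, read 0.95 ± 0.14 higher and the adhesion molecule Icam1 0.83 ± 0.15. Relb, another subunit, lost its higher call without CpG-A replicate 2 or 3 (adjusted p = 0.0628 and 0.144) or CpG-B replicate 1 or 3 (0.0612 and 0.133). Birc2 lost its own without CpG-A replicate 3 (0.0795) or CpG-B replicate 1 or 3 (0.0585 and 0.0793), and its other probe set read the other way. The inhibitors Nfkbie and Nfkbid read 1.22 ± 0.15 or -2.10 and 1.14 ± 0.16 or -2.18. The kappa-B-like motif GGGA, then any 4 bases, then CC, was searched on both strands. It was held by 13 of the 28 promoters (46.4%) of this list in RefSeq and by 17.6% of all promoters. Its share was 24.2% among promoters of genes that read higher, 21% for lower, 24.1% for open and 20.1% for genes not called. Among the list's members that read higher, 1 of 4 promoters (25%) held it.

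Of 30 inflammatory cytokines, 4 read higher, 0 lower and 3 were open. Tnf stood at 0.71, 0.83 and 0.59 in CpG-A arrays, against 0.10, 0.01 and -0.10 in CpG-B arrays (0.71 ± 0.18, adjusted p = 0.011). Clcf1, a cytokine of the interleukin-6 family, read 1.05 ± 0.19 higher. Il6 read 1.36 ± 0.26 or -1.97, and Mif, macrophage migration inhibitory factor, 1.54 ± 0.18 or -1.78. Of 37 chemokines and receptors, 8 read higher, 0 lower and 3 were open (29.7% called, against 13.0% of all genes). Cxcl10, the interferon-induced ligand of CXCR3, stood at 0.89, 0.67 and 1.29 in CpG-A arrays, against 0.20, -0.24 and 0.04 in CpG-B arrays (0.95 ± 0.20). Xcl1, the ligand of XCR1 on cross-presenting dendritic cells, read 1.09 ± 0.25 higher, close to the limit, and S1pr4, a sphingosine phosphate receptor, 0.54 ± 0.12. Ccr7, the receptor for entry into lymph nodes and a maturation marker, stood at -1.29, -1.41 and -1.39 in CpG-A arrays and at 0.10, -0.09 and -0.01 in CpG-B arrays, which gives -1.36 ± 0.18 or 1.96. Of 24 growth factor receptors, 6 read higher and 1 lower (29.2% called, against 13.0% of all genes). The interleukin-4 receptor Il4ra was at 0.88 ± 0.14 and Csf2rb2, a beta chain of the interleukin-3 receptor, at 0.85 ± 0.19. Csf2rb lost its higher call without CpG-A replicate 2 or 3 (adjusted p = 0.0634 and 0.0557) or CpG-B replicate 1 or 3 (0.0864 and 0.0897). Il21r lost its own without CpG-A replicate 2 (0.0685) or CpG-B replicate 3 (0.0929), and Csf3r without CpG-A replicate 3 (0.0503). Flt3 lost its lower call without CpG-A replicate 2 (0.0777) or CpG-B replicate 1 or 3 (0.0566 and 0.0766).

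Immediate early and quiescence regulators leaned the same way, with 9 of 44 higher, 2 lower and 3 open, and a median of 0.28. Egr1, an immediate early zinc-finger factor, stood at 1.03, 0.68 and 1.25 in CpG-A arrays, against -0.07, -0.25 and 0.32 in CpG-B arrays (0.99 ± 0.17, adjusted p = 0.00045). The stress sensor Gadd45b read 1.02 ± 0.18 higher and Txnip, an inhibitor of glucose uptake, 0.57 ± 0.12. The antiproliferative gene Btg2 read 1.12 ± 0.14, just outside the limit, or -2.20, and the phosphatase Dusp1 1.26 ± 0.20 or -2.06. Maff, a small Maf factor, read lower, at -0.93 ± 0.19. Among 30 integrins and adhesion molecules 5 read higher, 5 lower and 2 were open. The tetraspanin Cd82 read 0.98 ± 0.13 and the integrin Itgb3 1.10 ± 0.17 higher, while Pecam1 read -0.87 ± 0.14 and Itgax, the marker named above, lower. Itga4, a chain of the homing integrin VLA-4, read 1.22 ± 0.12 or -2.11.

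Surface maturation did not move as one. Of 36 co-stimulation and activation molecules, 3 read higher, 3 lower and 4 were open, with a median of -0.042. Cd40 read 0.03 ± 0.17, Cd80 -0.05 ± 0.25 and Cd86 -0.41 ± 0.21, none of them called (adjusted p = 0.95, 0.94 and 0.26). Slamf7 read 0.61 ± 0.15 higher and Cd48, a ligand of the same receptor family, -0.53 ± 0.12. Cd274 (PD-L1) stood at -0.68, -0.95 and -0.44 in CpG-A arrays, against -0.03, 0.07 and -0.04 in CpG-B arrays (-0.69 ± 0.19, adjusted p = 0.019), a call lost without CpG-A replicate 2 (0.0952), CpG-A replicate 1 (0.0527), CpG-B replicate 2 (0.0638) or CpG-B replicate 1 (0.0504). Of 21 genes of MHC class II and its chaperones, 5 read lower, 0 higher and 3 were open, with a median of -0.31. H2-Ab1 read -1.07 ± 0.20, Cd74, the invariant chain, -0.79 ± 0.16, and H2-Aa -0.75 ± 0.19, the last with a lost call without CpG-A replicate 3 (adjusted p = 0.0726). Ciita, the master activator of these genes, read -1.20 ± 0.27 or 2.12, with CpG-B arrays between -0.46 and 0.69, and the peptide exchanger H2-DMa -1.18 ± 0.15 or 2.14. Of 20 MHC class I genes, 2 read higher and 1 lower: Erap1, which trims peptides in the endoplasmic reticulum, stood at -1.18, -0.85 and -1.02 in CpG-A arrays, against -0.04, 0.06 and -0.02 in CpG-B arrays (-1.02 ± 0.14). The class I gene H2-Q4 lost its higher call without CpG-A replicate 2 or 3 (adjusted p = 0.0774 and 0.0703) or CpG-B replicate 1 or 3 (0.0746 and 0.125). H2-T24 lost its own without CpG-A replicate 3 (0.112) or CpG-B replicate 1 or 3 (0.0807 and 0.0997). Tap1, the peptide pump, read 0.32 ± 0.13 and was not called (0.14).

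Genes of ribosome assembly in the nucleolus held the highest share of calls of any list of more than 10 genes. Of 53 measured, 46 were called, 24 lower with CpG-A, 1 higher and 21 open, and the median was -0.99. Heatr1, a scaffold of the small subunit processome, had the smallest p among genes that read lower, with -0.92, -1.18 and -1.01 in CpG-A arrays, against -0.02, 0.05 and -0.03 in CpG-B arrays (-1.04 ± 0.11, adjusted p = 8.1e-06). Wdr43, another processome factor, stood at -1.08, -0.96 and -1.03 in CpG-A arrays and at 0.05, -0.02 and -0.03 in CpG-B arrays (-1.02 ± 0.12). The CpG-A arrays of both lay well below all CpG-B arrays. Of the 21 open members, 19 had a negative nearest reading and 2 a positive one. Gar1, of the box H/ACA ribonucleoproteins that guide pseudouridylation, read -1.18 ± 0.11 or 2.14, and Bysl, of small subunit maturation, -1.31 ± 0.14 or 2.01. Polr1a, the largest subunit of RNA polymerase I, read -1.62 ± 0.14 or 1.71, Nop58, of box C/D ribonucleoproteins, -1.64 ± 0.14 or 1.68, Mybbp1a -1.61 ± 0.14 or 1.71, Utp18 -1.46 ± 0.16 or 1.86, and the pseudouridine synthase Dkc1 1.55 ± 0.16 or -1.77. The single member that read higher, Wdr12, was at 1.09, just inside the limit, and is named after its value was seen. The E-box CACGTG, bound by Myc and related factors and counted after seeing the data, was in 3 of 50 nucleolar promoters (6%), in 6.02% of all promoters and in 11% of those of genes that read lower.

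Other parts of the protein-making apparatus, grouped by gene symbol after the data had been seen, read lower as well. Of 9 subunits of the chaperonin CCT, which folds actin and tubulin, 8 read lower and the testis form Cct6b was not called at 0.09. Cct6a stood at -0.98, -1.10 and -1.16 in CpG-A arrays, against 0.06, -0.03 and -0.04 in CpG-B arrays (-1.08 ± 0.12, adjusted p = 1.1e-05). Cct3 read -0.83 ± 0.12, Cct2 -0.78 ± 0.11, Cct7 -0.75 ± 0.11 and Tcp1 -0.71 ± 0.11. Of 20 aminoacyl-tRNA synthetases and partners, 11 read lower, 0 higher and 3 were open, and all 20 nearest readings were negative. Farsb, a chain of the phenylalanine enzyme, stood at -1.21, -1.09 and -0.94 in CpG-A arrays and at 0.10, 0.02 and -0.12 in CpG-B arrays (-1.08 ± 0.15). Tars read -0.83 ± 0.16, Mars1 -0.66 ± 0.12 and Eprs -1.15 ± 0.14 or 2.18. Translation initiation factors had 16 of 45 lower, 0 higher and 1 open, with Eif1ax at -0.86 ± 0.13 and Eif3b at -0.83 ± 0.13. Abce1, which recycles ribosomes, read -1.04 ± 0.12, and the release factor Gspt1 -1.08 ± 0.13.

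Cytosolic ribosomal proteins had 27 of 61 lower, 0 higher and 2 open, with a median of -0.40, and mitochondrial ones 28 of 77 lower, 0 higher and 3 open, with the same median. Rps19 stood at -0.99, -0.86 and -1.07 in CpG-A arrays, against -0.03, 0.08 and -0.05 in CpG-B arrays (-0.97 ± 0.13, adjusted p = 6.2e-05), and Rpl4 read -0.59 ± 0.11. Ribosomal protein genes have many near-identical copies in the genome, and their probe sets may share signal with them. Among mitochondrial members Mrps28 read -1.10 ± 0.16, Mrps5 -0.80 ± 0.17 and Mrpl57 -0.71 ± 0.13. Nuclear pore and transport genes had 19 of 51 lower, 1 higher and 6 open. Nup93, a scaffold of the pore, stood at -0.95, -0.94 and -0.90 in CpG-A arrays, against -0.01, 0.00 and 0.01 in CpG-B arrays (-0.93 ± 0.11), the tightest groups among the genes shown. The pore protein Nup62 read -1.07 ± 0.15, the Ran regulator Ranbp1 -1.23 ± 0.13 or 2.09, and the importin Kpna4 0.84 ± 0.12 higher.

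**Figure D3:**
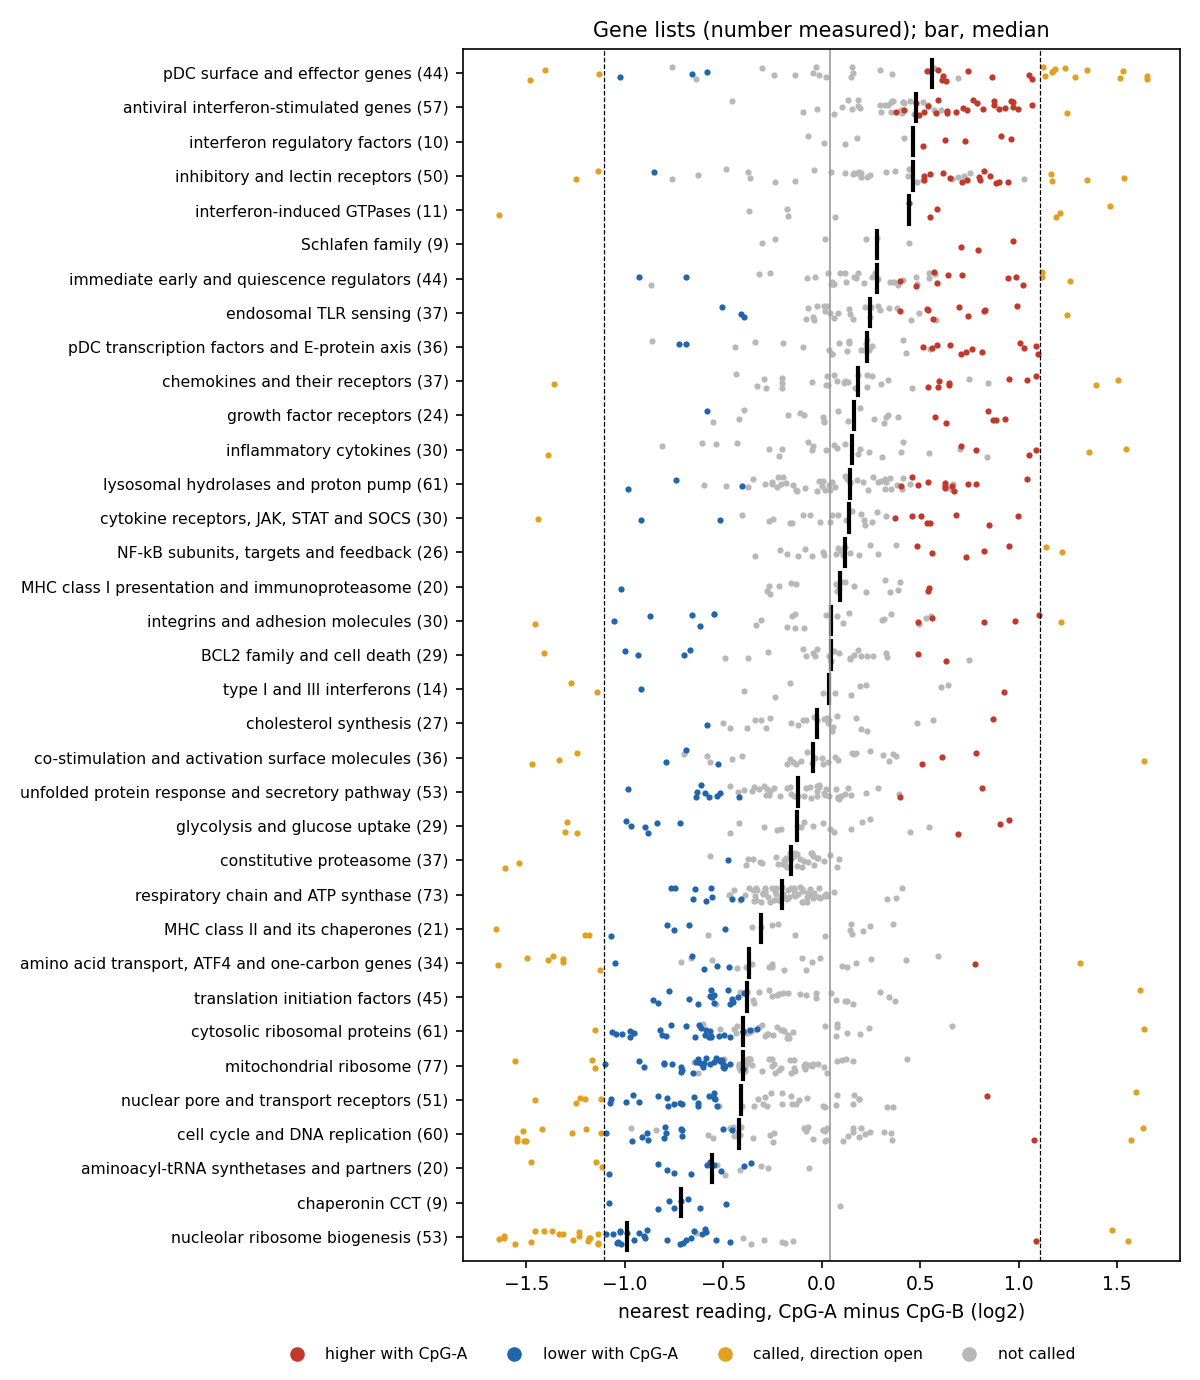
Each row is a gene list with its number of measured genes, and each point a member's nearest reading (CpG-A minus CpG-B, log2), coloured by its call. Black bars are list medians, the grey line is the median of all genes (0.041) and dashed lines are the limits of 1.11. Medians run between -0.99 for nucleolar ribosome biogenesis and 0.56 for pDC surface genes.

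Called metabolic and replication genes also mostly read lower, with exceptions among transporters. Of 60 cell cycle and replication genes, 13 read lower, 1 higher and 11 were open. Dnmt1, the maintenance DNA methyltransferase, stood at -0.74, -1.10 and -0.80 in CpG-A arrays, against 0.14, -0.07 and -0.07 in CpG-B arrays (-0.88 ± 0.13), and Mcm7, of the replicative helicase, read -0.92 ± 0.14, both named as directed members after their values were seen. Mcm2 read 1.63 ± 0.12 or -1.69, Mcm6 1.57 ± 0.16 or -1.75, the kinase Cdk4 -1.51 ± 0.14 or 1.81, Ccnd1 (cyclin D1) -1.50 ± 0.16 or 1.82 and the polymerase Pola1 -1.55 ± 0.18 or 1.77. Of 34 genes of amino acid transport and one-carbon metabolism, 5 read lower, 1 higher and 8 were open. The glutamine transporter Slc1a5 read -1.05 ± 0.13 and Aldh18a1, of proline synthesis, -0.66 ± 0.15. Psat1, of serine synthesis, read -1.31 ± 0.23 or 2.01, Asns, of asparagine synthesis, -1.37 ± 0.25 or 1.96, and Arg2 (arginase 2) 1.31 ± 0.23 or -2.01.

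Of 29 glycolysis and glucose uptake genes, 6 read lower, 3 higher and 3 were open, with a median of -0.13. Pgk1 stood at -0.90, -0.74 and -1.01 in CpG-A arrays, against 0.08, -0.05 and -0.03 in CpG-B arrays (-0.88 ± 0.18), and the enzymes Pgam1 and Pkm read -0.97 ± 0.14 and -0.99 ± 0.17. The glucose transporters went the other way: Slc2a3 read 0.90 ± 0.15 higher, and Slc2a6, a lysosomal hexose transporter, 0.95 ± 0.14. Tpi1 read -1.30 ± 0.18 or 2.02. Of 73 respiratory chain genes, 9 read lower and 0 higher (12.3% called, near the 13.0% of all genes), with Ndufa12 at -0.77 ± 0.12 and Uqcr10 at -0.75 ± 0.12. In the list of unfolded protein response and secretory genes, with 53 measured, 9 read lower and 2 higher (20.8% called, against 13.0% of all genes). The cargo receptor Lman1 was at -0.98 ± 0.15, Rpn2 of the glycosylation complex at -0.64 ± 0.12 and Pdia6 at -0.61 ± 0.12, while Xbp1, given above, read higher. Calls took 8.1% of the proteasome list (3 of 37) and 7.4% of the cholesterol list (2 of 27), below the share of all genes. In the cholesterol list Nr1h3, the sterol sensor LXR-alpha, read 0.87 ± 0.19 higher.

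Against medium, most of the protein-making, metabolic and replication lists had medians nearer to 0 with CpG-A than with CpG-B. Median readings over the nucleolar list were 0.0011 for CpG-A and 0.89 for CpG-B, over tRNA synthetases 0.30 and 0.99, over CCT 0.19 and 0.80, and over the mitochondrial ribosome -0.0028 and 0.36. Exceptions among them were cytosolic ribosomal proteins, with -0.43 for CpG-A and -0.018 for CpG-B, cell cycle and replication (-0.12 and 0.021) and cholesterol synthesis (0.34 and 0.28). The lists described earlier fell either way. MHC class II (-0.086 and -0.040), antiviral interferon-stimulated genes (0.29 and 0.20) and pDC surface genes (0.26 and -0.099) were among those nearer to 0 with CpG-B. Interferon regulatory factors (0.017 and -0.30) and pDC transcription factors (-0.17 and -0.46) were among those nearer to 0 with CpG-A. All of these values share the 2 medium arrays, and large true differences from medium can be folded into small readings. Heatr1 was at 0.02 with CpG-A and 1.06 with CpG-B, Cct6a at 0.28 and 1.36, and Rps19 at -0.78 and 0.20.

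**Figure D4:**
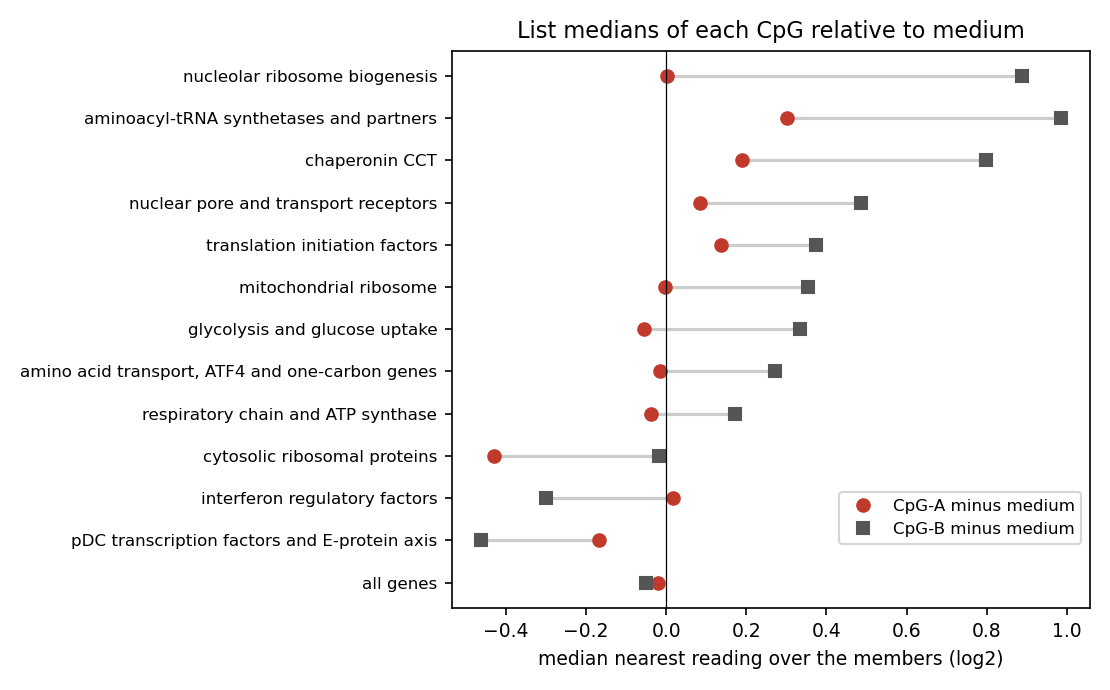
Median nearest reading over the members of 12 gene lists and over all genes, for CpG-A minus medium (red circles) and CpG-B minus medium (grey squares), in log2 units. Both share the 2 medium arrays. For the nucleolar list the medians are 0.0011 with CpG-A and 0.89 with CpG-B, and for cytosolic ribosomal proteins -0.43 and -0.018. Other lists, among them antiviral interferon-stimulated genes, had medians nearer to 0 with CpG-B and are not drawn.

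Single genes with the smallest p-values fell partly outside these lists. Nxf1, the receptor for mRNA export, stood at 1.05, 1.03 and 1.00 in CpG-A arrays, against 0.02, -0.06 and 0.03 in CpG-B arrays (1.02 ± 0.12, adjusted p = 2.4e-05). Slc29a3, a nucleoside transporter of lysosomes, stood at 0.99, 1.02 and 0.89 in CpG-A arrays and at 0.01, -0.02 and 0.01 in CpG-B arrays (0.97 ± 0.12). In both genes each group spanned little and the groups lay far apart. Rftn1 (raftlin), a lipid raft protein, read 1.06 ± 0.14 higher, the actin-binding Lsp1 1.05 ± 0.13, the formin Inf2 0.94 ± 0.11, the calcium-binding S100a6 0.96 ± 0.12 and the triglyceride lipase Pnpla2 0.99 ± 0.12. Pkib, an inhibitor of protein kinase A, read 1.09 ± 0.14, the adaptor Sh2d3c 0.88 ± 0.11, Cyb561a3, a cytochrome b561 of lysosomes, 0.99 ± 0.13, the dehydrogenase Dhdh 1.08 ± 0.13 and the zinc-finger factor Hivep1 1.10 ± 0.13.

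Among genes that read lower, Hspa9, the mitochondrial Hsp70, stood at -0.90, -0.92 and -1.01 in CpG-A arrays, against 0.03, 0.04 and -0.08 in CpG-B arrays (-0.94 ± 0.11, adjusted p = 1.3e-05). Milr1, an inhibitory immunoglobulin-like receptor, stood at -0.91, -0.91 and -0.94 in CpG-A arrays and at 0.01, -0.05 and 0.04 in CpG-B arrays (-0.92 ± 0.10). Non-overlap of the groups was a condition for naming the genes of smallest p in each direction. Ndfip1, an adaptor of Nedd4-family ubiquitin ligases, read -1.03 ± 0.12 and Nedd4 itself -0.98 ± 0.12. Tecr, of fatty acid elongation, read -0.98 ± 0.12, the acetyltransferase Kat2a -1.08 ± 0.13, Ifrd2 -1.04 ± 0.12 and the mitochondrial microprotein gene Mtln -1.03 ± 0.13. Casp8, the apoptosis initiator, read -0.997 ± 0.12. In the cell death list of 29 genes, 4 read lower and 2 higher, and the survival gene Bcl2 read -1.41 ± 0.19 or 1.91.

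The 10 open genes with the smallest p-values had readings of 1.44 to 1.66 in size, so that both directions are nearly as near. Fasn, fatty acid synthase, stood at -1.61, -1.62 and -1.39 in CpG-A arrays, against -0.01, 0.06 and -0.06 in CpG-B arrays (-1.54 ± 0.11 or 1.78, adjusted p = 7.6e-07). Lifr, the LIF receptor, stood at -1.35, -1.54 and -1.42 in CpG-A arrays and at -0.16, 0.18 and -0.02 in CpG-B arrays (-1.44 ± 0.11 or 1.88). Mdn1, the ribosome assembly ATPase midasin, read -1.66 ± 0.12 or 1.66, the tetraspanin Cd37 1.65 ± 0.13 or -1.67, and the importin Ipo5 -1.46 ± 0.12 or 1.87. Wdr75 read -1.61 ± 0.13 or 1.71, Pa2g4, a growth regulator, -1.51 ± 0.12 or 1.81, and the unnamed locus Gm10684 1.59 ± 0.13 or -1.74. Nop58 and Mcm2, described above, complete the 10. A difference was called for each of them on every reading, and its direction was not.

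The same contrast in the presence of LIF used 6 other arrays, CpG-A + LIF against CpG-B + LIF, and called 3339 genes (16.9%). Called in both were 1914 genes, 74.8% of those called without LIF and 57.3% of those called with it. Of the 873 genes that read higher without LIF, 830 (95.1%) had a positive reading with it. Of the 1212 that read lower, 1194 (98.5%) had a negative one. Among the 17191 genes not called without LIF, 11891 (69.2%) also had the same sign with it. Median readings were 0.53 with LIF and 0.64 without it for the higher genes, and -0.70 with LIF and -0.69 without it for the lower genes. Heatr1 read -1.11 with LIF, Cct6a -1.13, Plac8 1.25, Tcf4 1.20 and Ifi203 1.17, each called. Some genes were not called with LIF: Ifnb1 read -0.09 (adjusted p = 0.85), Tlr9 0.32 (0.061) and Irf9 0.21 (0.42). The test of the difference itself, with LIF minus without, gave -1.01 for Ifnb1 (limma, adjusted p = 0.53), -0.24 for Tlr9 (0.97) and -0.41 for Irf9 (0.93), none of them called. Ifnab and Xcl1 had nearest readings of the other sign with LIF, 1.20 or -2.12 for Ifnab and -1.27 or 2.05 for Xcl1, both called but outside the limit. Of the 4 interferon genes called without LIF, 0 were called with the same sign with it: Ifna12 read 0.77 (adjusted p = 0.024) and Ifna2 0.80 (0.11).

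The difference between the contrast with LIF and without it was called for 131 genes (0.663%). Of these, 126 had at least 1 reading outside the limit, and 96 had readings of opposite sign that were both outside it, as for Siglech, which read -1.46 or 1.86 with LIF and 1.34 or -1.98 without. When the difference was itself folded to its nearest reading, a setting chosen after seeing the data, 0 genes were called with limma, while 1006 had an unadjusted p under 0.05. For none of the genes named above was a differing response to LIF therefore shown on every reading.

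**Figure D5:**
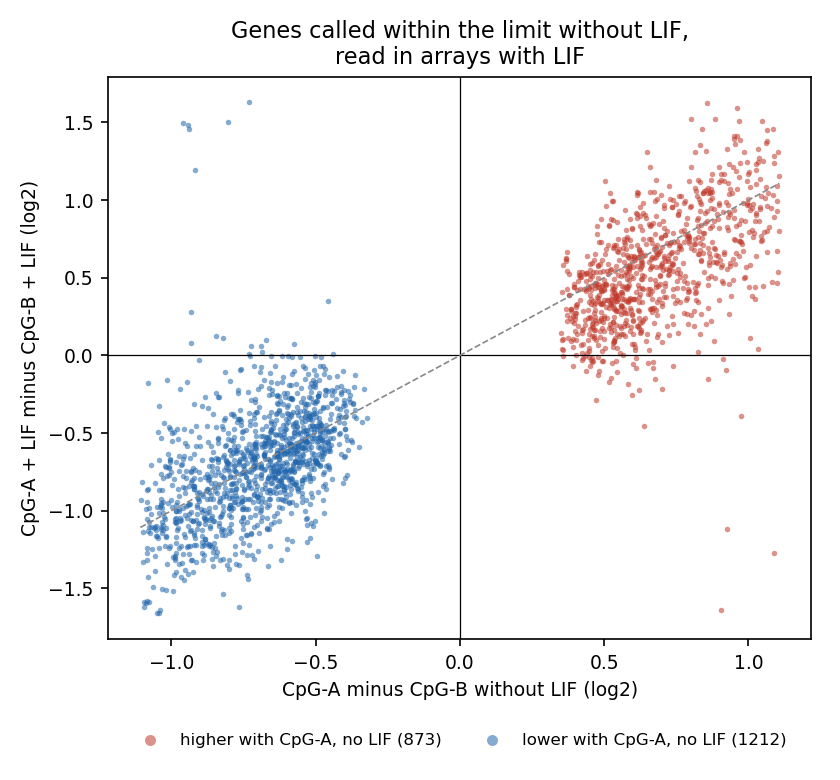
Each point is a gene called within the limit without LIF, with its CpG-A minus CpG-B reading without LIF on the horizontal axis and CpG-A + LIF minus CpG-B + LIF on the vertical axis, both log2. The dashed line marks equal readings. Of 873 higher genes (red) 830 lie above 0 with LIF, and of 1212 lower genes (blue) 1194 lie below 0. Among genes not called, which are not drawn, 69.2% had the same sign with LIF. Both axes are folded alike, so equal signs do not settle the true direction.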

How the data were processed

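Per the submitters' processing notes the arrays were processed with RMA, and the deposited table holds other-scaled values: digits of linear intensities whose decimal mark was lost. The 24680 probe sets included 21354 with exactly 1 gene symbol, of which 1 per gene was kept (the one with the most listed accessions), giving 19751 genes; 21277 matched RefSeq by gene identifier. From log2 of the digits modulo 3.32, group means were circular means and each array was placed the shortest way from its group mean. A limma model (version 3.58.1, R 4.3.3) with a term for each of the 6 groups was fitted to the 17 arrays, which left 11 residual degrees of freedom, and p-values were adjusted by Benjamini-Hochberg over all genes. SE and p-values come from this fit, and array values have n = 3 per group. Named genes were the 15 smallest p-values in each direction within the limit, among genes whose CpG-A and CpG-B arrays did not overlap. To these were added the 10 smallest open ones, up to 8 members per list by p, and called LIF differences. Not every gene of this rule is described, and which ones are was decided after their values and stability were seen; Aldh18a1, Cct6b, Cd40, Cd80, Cd86, Dnmt1, Mcm7, Wdr12 and the promoter examples outside it were added likewise. Members and lists were chosen with earlier results of these data known. The fit was tested on simulated data, where called genes with a planted difference of at most 1 had the right sign. Not every altered gene was called. The check of sign did not cover larger planted differences, which can fold into readings of the opposite sign within the limit. Same-numbered CpG-A and CpG-B arrays deviated together with correlations of 0.042, 0.083 and -0.012. The labels state no pairing, so numbers were not taken to pair samples. Correlations from 3 arrays per group cannot settle whether samples were paired. Alternatives are given below. Arrays give no counting depth, and their number limits the precision. Oligonucleotide sequences were not used here.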

Additional observations from a re-analysis of the deposited data

Results flagged for a closer look

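For 5 genes with both readings within the limit, the CpG-A minus CpG-B difference with LIF differed from that without LIF by limma's test of the difference itself, with values of -1.20 for Proser3, 0.99 for Il7r, -1.09 for Vmn1r174, -1.08 for Thop1 and 0.81 for Igfbpl1. Proser3 read -0.97 with LIF and 0.23 without it. Il7r, the interleukin-7 receptor chain, read 0.60 with LIF and -0.40 without it. Thop1, a peptidase, read -1.07 with LIF and 0.01 without it. Vmn1r174 read -0.45 with LIF and 0.64 without it, and Igfbpl1 0.35 and -0.46. The calls of Vmn1r174 and Igfbpl1 without LIF were lost when 1 array was left out (adjusted p = 0.0557 without CpG-A replicate 1 for Vmn1r174, and 0.0602 without CpG-A replicate 2 and 0.0668 without CpG-B replicate 3 for Igfbpl1). Folding the difference to its nearest reading left the values and unadjusted p-values of all 5 as they were, but the adjusted p-values became 0.28 to 0.32, since those of other genes changed, and 0 of the 5 were called. Groups of 3 arrays were too small for the check for single outlying samples.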

How the results depend on the processing

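The counts of called, higher and lower genes stayed within 1.5 times the reported ones under each alternative run. Called genes numbered 2288 in a fit of the 6 arrays alone, 2547 with robust empirical Bayes, 2529 with arrays centred on their median deviation, 2517 with arrays unfolded at the widest gap, 2041 among the 19250 genes whose 6 arrays spanned at most 1.66, and 2747 with every probe set tested. Leaving out each array in turn gave 1909 to 2279 called, 621 to 741 higher, 841 to 1050 lower and 433 to 500 open genes, and 118 to 134 differences between LIF and no LIF. Centring moved the median reading by -0.022 and the share of higher among directed calls to 37.7%, against 41.9%. The number of open genes changed by construction, to 127 under that filter and to 1024 with a stricter direction limit of 1 in 4 of the period, which left 654 higher and 882 lower. Folding the LIF difference to its nearest reading, added after seeing the data, left 0 calls. The labels do not say whether same-numbered arrays shared more than a number. The replicate block gave 2676 calls (936 higher, 1265 lower, 475 open), 3482 with LIF and 134 differences. Not every array correlated best with its own number. The single genes counted here are the 359 that the naming rule allows or that were considered for the text, 293 of them called, including fragile ones the text does not describe: 105 changed call or sign under at least 1 alternative, and 29 changed sign. Nearly all sign changes were of readings near 1.66 in size, for which both signs are nearly as near. They were Mdn1 (1.64), H2-Eb1 (1.65) and Shmt2 (1.66) with centred arrays, and Mdn1 (1.66), Cd37 (-1.67), Polr1a (1.71), Dkc1 (-1.77), Sema4b (-1.67), H2-Eb1 (1.67) and Psmg1 (1.72) unfolded at the widest gap. The exception was Birc2, whose other probe set read -0.092. With 1 array left out, lowest and highest readings were Ccl7 -1.66 to 1.58, Ccr2 -1.60 to 1.53, Cd37 -1.64 to 1.63, Cd5 -1.52 to 1.48, Dkc1 -1.65 to 1.63, Eif2b3 -1.59 to 1.57, Gm4951 -1.64 to 1.61, H2-Eb1 -1.56 to 1.64, Hvcn1 -1.61 to 1.53, Itgb5 -1.60 to 1.64, Mcm2 -1.61 to 1.61, Mcm3 -1.63 to 1.60, Mcm4 -1.60 to 1.60, Mcm6 -1.63 to 1.57, Mdn1 -1.61 to 1.66, Mrps27 -1.51 to 1.63, Mthfd1 -1.65 to 1.54, Mybbp1a -1.63 to 1.61, Nop58 -1.64 to 1.60, Nup43 -1.66 to 1.62, Pola1 -1.65 to 1.64, Polr1a -1.66 to 1.64, Psmg1 -1.65 to 1.66, Psmg2 -1.62 to 1.64, Ptprf -1.65 to 1.66, Rpl12 -1.64 to 1.57, Sema4b -1.62 to 1.54, Shmt2 -1.65 to 1.63. Adjusted p-values for the calls lost without 1 array stand beside the genes the report describes. The 3 arrays per group limit precision, and signal over background cannot be read from these digits.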
